A study of Mus musculus with 6 samples.

Results

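The genes described here are 5 integrin subunits that bind the Arg-Gly-Asp (RGD) sequence, Itgav, Itga5, Itgb3, Itgb5 and Itgb6, and vitronectin, Vtn, a ligand of several of these receptors. They were taken by gene symbol and are 6 of the 84 wound healing genes on the PCR array. RNA came from dermal fibroblasts, cultured from newborn C57BL/6 mice (labelled neonatal) and used at passages 3 to 5, scratched as a monolayer in the presence of mitomycin C in both groups, which stops proliferation. Of the 6 arrays, 3 were from control cultures in simple DMEM. The other 3 were from cultures given 2,4-dermatan sulfate (DS), a sulfated polysaccharide of the ascidian Styela plicata, at 50 µg/mL. The sample labels list DS concentrations from 10 to 1000 µg/mL and name both 24 h and 72 h, and the methods give yet another time, so the exposure time of each culture is not settled. The cultures are described as biological triplicates, and the sources do not say whether each came from separate animals.

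Integrins are receptors made of an α and a β subunit that connect the extracellular matrix to the actin cytoskeleton. The αv subunit pairs with β3, β5 or β6 and recognises RGD in vitronectin, fibronectin and latent TGF-β, while α5 pairs with β1 to form the main fibronectin receptor. Vitronectin is a glycoprotein made chiefly by the liver that circulates in plasma and is deposited in wounds, and β6 is best known from epithelial cells, where it appears during wound repair.

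The measurement is the CT, the PCR cycle at which a well's fluorescence passes a threshold. A lower CT means more template, by a factor of 2 per cycle at full efficiency, and a CT over 36 counts as not detected. Of 89 gene assays, 26, 25 and 25 were detected in control arrays 1 to 3, and 60, 60 and 58 in DS arrays 1 to 3. The mean CT of the reference genes Hsp90ab1, Ccl7 and Egfr was 30.4, 30.4 and 30.2 in control and 30.3 in each DS array. These genes had been selected for a similar level in both groups, so their equal CT follows from the selection. The genomic DNA control, an assay for untranscribed DNA, gave no CT in control and 33.08, 34.02 and 33.78 in DS. No array had a CT in any of its 3 positive PCR control wells.

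The fibroblast label was compared with 9 fibroblast markers. In each control array 1 of the 9, Col5a2, was detected, and Col1a1, Col1a2, Col3a1, Col5a1, Col14a1, Mmp2, Acta2 and Tagln were not. In each DS array 7 of the 9 were detected, without Col5a1 and Acta2. Their summed relative level, 2 to the power of −ΔCT against the reference genes, was 97.9, 78.8 and 117 in control, where Col5a2 gave all of it. It was 76150, 321870 and 209350 in DS, where the actin-binding gene Tagln had the earliest CT. Such sums weigh each assay by its amplification efficiency, which was not measured. Detection of fibroblast markers thus moves with the groups, as did detection over all 89 gene assays, so the shift is not particular to these markers. Among the 64 tested genes 60.9% were detected in DS only. The part of fibroblast marker detection in the differences below was not tested. In bulk RNA, fewer cells of a type and less RNA per cell cannot be told apart.

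Promoter windows of RefSeq, 250 bases before to 50 after the start of transcription in build GRCm38.p6, were found for 5 of the 6 genes. The windows of the 4 genes with a measured difference are shown because 2 of these genes were higher and 2 lower in DS with the reference genes above. Each is written 5′ to 3′ on the gene's strand. They lie at chr11:78498870-78499169 on the plus strand for Vtn, chr2:83724147-83724446 on the plus strand for Itgav, chr15:103366742-103367041 on the minus strand for Itga5 and chr2:60722554-60722853 on the minus strand for Itgb6. Capitals mark matches on both strands to the TATA box letters TATAAA, the GC box letters GGGCGG, the AP-1 letters TGANTCA or the CCAAT box letters CCAAT.
Vtn: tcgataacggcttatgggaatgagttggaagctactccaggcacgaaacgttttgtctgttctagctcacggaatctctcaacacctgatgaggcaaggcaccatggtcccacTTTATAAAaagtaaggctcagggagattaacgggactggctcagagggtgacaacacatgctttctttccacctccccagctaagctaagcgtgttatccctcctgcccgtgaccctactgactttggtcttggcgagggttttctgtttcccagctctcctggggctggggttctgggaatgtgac
Itgav: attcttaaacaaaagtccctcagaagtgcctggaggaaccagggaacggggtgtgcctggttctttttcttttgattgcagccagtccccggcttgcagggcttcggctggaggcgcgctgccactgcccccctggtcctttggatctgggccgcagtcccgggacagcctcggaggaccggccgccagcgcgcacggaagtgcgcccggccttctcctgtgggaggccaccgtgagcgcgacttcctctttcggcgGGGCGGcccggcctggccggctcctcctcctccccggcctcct
Itga5: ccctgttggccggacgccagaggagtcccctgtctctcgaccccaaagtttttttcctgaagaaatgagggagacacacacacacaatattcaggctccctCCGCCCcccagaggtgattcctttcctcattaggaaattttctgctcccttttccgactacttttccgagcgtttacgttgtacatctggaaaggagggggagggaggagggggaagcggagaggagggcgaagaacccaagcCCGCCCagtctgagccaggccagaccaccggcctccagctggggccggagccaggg
Itgb6: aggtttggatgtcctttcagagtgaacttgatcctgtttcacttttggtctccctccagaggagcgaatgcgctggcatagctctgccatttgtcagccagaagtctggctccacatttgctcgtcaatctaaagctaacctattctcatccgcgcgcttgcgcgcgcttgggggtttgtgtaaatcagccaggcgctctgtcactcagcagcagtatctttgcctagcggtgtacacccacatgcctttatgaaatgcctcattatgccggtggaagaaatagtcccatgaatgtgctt
The Vtn window holds TATAAA on each strand, in 2 overlapping matches that begin at positions −137 and −135 from the start. Itgav holds GGGCGG once, from position 8 of the transcript. Itga5 holds GGGCGG on the opposite strand from positions −149 and −6. The Itgb6 window holds none of the 4 motifs. RefSeq lists a 2nd window for Itgb6, at chr2:60673644-60673943 on the minus strand with a GC content of 38.3%, which holds none of them either and is not shown. Among 32851 windows of this length, 13.6% hold TATAAA, 35.7% GGGCGG, 7.81% TGANTCA and 37.4% CCAAT. The GC content was 51.7% for Vtn, 67.3% for Itgav, 58.7% for Itga5 and 50.3% for the Itgb6 window shown, against a median of 52.7%.

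Vitronectin, the ligand, was found in control arrays only. Its CT was 24.74, 23.93 and 24.0 in control arrays 1 to 3 (24.2 ± 0.449, SD, n = 3), and no DS array gave a CT. All 3 control arrays were high and all 3 DS arrays were below detection, with no overlap. Among the assays with a CT, Vtn ranked 8 of 32, 7 of 28 and 8 of 29 from the earliest in control. After subtraction of the reference CT (ΔCT), Vtn had a log2 fold change of −11.79 or lower (SE 0.31, adjusted p = 2.84e-09, limma). This value is a bound because the DS arrays were set to the cutoff of 36. It was 1 of 64 genes that were detected in at least 1 array and tested. Fga and Plg, the other 2 plasma proteins of the liver on the array, had the opposite pattern, with a CT in all 3 DS arrays and none in control. The summed relative level of the 3 was 49.6, 85.6 and 72.3 in control, all of it Vtn, and 0.467, 0.287 and 0.715 in DS, none of it Vtn. The part of the other plasma protein genes in the Vtn difference was not tested.

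Itgav encodes αv, the subunit common to most vitronectin receptors. It had no CT in control and 34.4, 34.01 and 33.68 in DS (34.0 ± 0.360, SD, n = 3). The DS arrays were close to each other and all within 3 cycles of the cutoff, and the groups did not overlap. Itgav rose by at least 1.96 on the log2 scale (SE 0.31, adjusted p = 0.000284, limma). Its value was 0.96 at a CT cutoff of 35, 5.96 at 40 and 10.96 without a cutoff. Itgav had 4.91 with the median CT of the assays detected in all 6 arrays as reference. It was lower in DS, not higher, when the 5 housekeeping genes or Actb and Gapdh served as reference (log2 fold changes −5.66 and −9.93, limma adjusted p = 1.70e-07 and 1.27e-08, in a range of 1.27e-08 to 0.0118 over its alternatives). The Itgav CT minus the CT of the genomic DNA control in the same array was 1.32, −0.01 and −0.10 cycles in DS (0.403 ± 0.795, SD, n = 3). RNA preparation included a DNase step, and a separate quality run before the arrays, not analysed here, was reported as free of genomic DNA. Template from genomic DNA in the Itgav wells was not tested.

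Itga5 encodes α5 of the fibronectin receptor and was the only one of the 6 genes detected in every array. Its CT was 26.7, 27.06 and 26.91 in control (26.9 ± 0.181, SD, n = 3) and 29.16, 31.0 and 29.8 in DS (30.0 ± 0.934, SD, n = 3). Each of the 3 DS values came after all control values, and the DS arrays were more spread, with array 2 the latest. Itga5 fell by 3.11 on the log2 scale (SE 0.47, adjusted p = 0.000224, limma), a difference that needs no bound. In DS the Itga5 CT came 3.64 ± 0.538 cycles (SD, n = 3) before the genomic DNA control. The call was lost when the median CT of the 17 gene assays detected in all 6 arrays served as reference (−0.15, adjusted p = 0.724, limma, the highest of its alternatives, which began at 5.05e-09). With either housekeeping reference the fall was larger, −10.73 and −15.0 on the log2 scale.

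Itgb6 encodes β6, which pairs only with αv. It had no CT in control and 10.04, 9.61 and 9.77 in DS (9.81 ± 0.217, SD, n = 3). The 3 DS arrays lay within 1 cycle of each other and the control arrays were below detection. The Itgb6 assay was the earliest of all gene assays in DS arrays 1 and 3 and ranked 3 in array 2. It rose by at least 26.18 on the log2 scale (SE 0.29, adjusted p = 1.69e-11, limma). The CT came 23.8 ± 0.704 cycles (SD, n = 3) before the genomic DNA control. The other 2 epithelial markers on the array were not detected in any array: Itga6 gave no CT, and Cdh1, the cell adhesion protein E-cadherin, gave 38.49, 39.63 and 38.25 in DS, all over the cutoff. The summed relative level of the 3 epithelial markers was 0 in control and 1235500, 1683900 and 1514100 in DS, all of it Itgb6.

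The other 2 β subunits were not detected. Itgb3, whose product forms the classical vitronectin receptor with αv and the fibrinogen receptor of platelets, gave a single CT of 38.15, in DS array 1. Itgb5, the β5 partner of αv, gave no CT in any array. Neither was tested. F13a1, the other platelet and megakaryocyte marker on the array, was detected in DS only, at a CT of 26.99, 25.12 and 25.63. The summed relative level of the 2 platelet markers was 0 in control and 9.76, 36.1 and 25.5 in DS, none of it Itgb3.

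**Figure D1:**
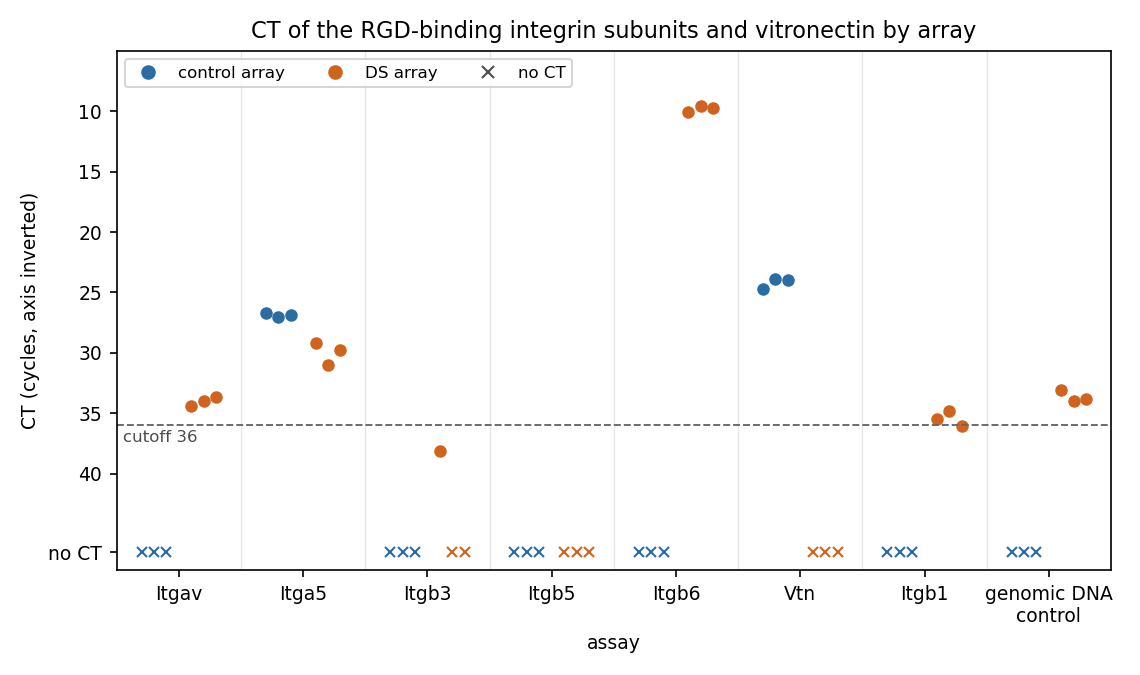
CT in cycles, on an inverted axis, of the 6 genes, the partner subunit Itgb1 and the genomic DNA control in each of the 3 control and 3 DS arrays; crosses are wells without a CT and the dashed line is the cutoff of 36. Itgb6 sits near 10 in DS, Vtn near 24 in control, and Itgav at the level of the genomic DNA control.

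Of the 6 genes, 4 were tested, 2 had higher and 2 lower values in DS, and 2 were not detected. Among all 64 tested genes 92.2% were called by limma, 71.9% as higher and 20.3% as lower in DS. The 64 include Ccl7 and Egfr, 2 of the 3 reference genes, which are among the 5 genes not called and had been selected for equal level. Calls were thus the rule on this array, and 4 called of 4 tested is near that background. The groups did not overlap for these 4 genes, nor for 93.8% of the tested genes. Detection in DS only, as for Itgav and Itgb6, was found for 39 genes (60.9%), and detection in control only, as for Vtn, for 7 genes (10.9%). The median log2 fold change was −0.57 over the 4 genes and 4.40 over the 64, with bounds at their value against the cutoff, so both medians move with the cutoff. Over the 18 genes detected in both groups, which include Itga5, the median was 2.23. Since a gene enters the test when either group detects it, these counts describe the genes that passed and not all 6.

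**Figure D2:**
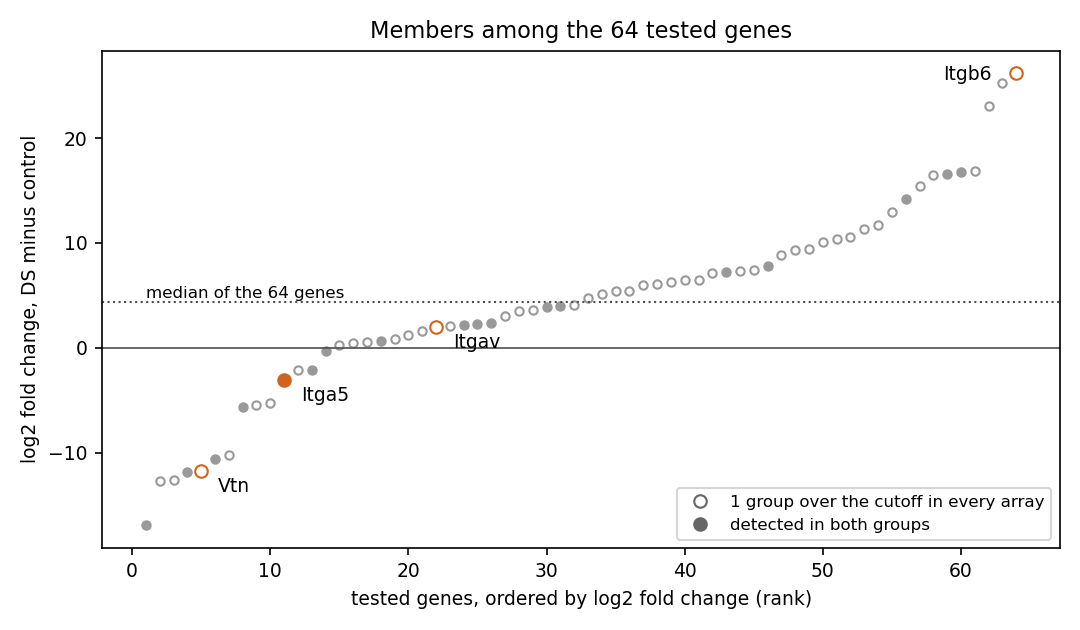
Log2 fold changes of the 64 tested genes in order, DS minus control; open points were over the cutoff in every array of 1 group, so their place depends on the cutoff, and the 4 RGD-binding integrin and vitronectin genes are coloured. Itgb6 and Itgav are positive and Vtn and Itga5 negative, with a sign of Itgav that turned under 2 other choices of reference.

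Without any reference gene the same 4 genes differed by −1.97 cycles for Itgav, 3.10 for Itga5, −26.2 for Itgb6 and 11.8 for Vtn (DS minus control, CT over 36 set to 36, so that all but the Itga5 value are bounds). Each reached p = 0.1 in the two-sided exact permutation test, the smallest value that 3 arrays against 3 allow. The difference between the CT of a pair of assays in the same array is likewise free of a reference gene. Itgav, Itga5, Itgb6, Vtn and the partner Itgb1 gave 10 pairs, and in 4 of these both assays were over the cutoff in at least 1 array, leaving 6. All 6 had groups that did not overlap, with an exact permutation p of 0.1 (0.1 after Benjamini-Hochberg adjustment over the 10 pairs). The groups did not overlap in any of the 10 pairs, nor for 93.8% of the 64 tested genes taken singly. Except for Itgb1, the pairs combine genes whose groups were already apart, so this count adds little to the single genes.

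Itgav and Itga5 are the α subunits of the vitronectin and fibronectin receptors. The Itgav CT minus the Itga5 CT was at least 9.3, 8.94 and 9.09 cycles in control and 5.24, 3.01 and 3.88 in DS. The distance between the 2 α subunits was smaller in every DS array, by at least 5.07 cycles in the mean. The Itga5 CT minus the Vtn CT was 1.96, 3.13 and 2.91 in control, where both were measured. In DS it was −6.84, −5.0 and −6.2 or lower, since Vtn had no CT there. The order of these 2 assays thus differed between the groups, as did that of Itgav and Vtn, Itga5 and Itgb6, and Itgb6 and Vtn. The change of Itga5 minus Vtn was −8.68 cycles or lower. The Itgav CT minus the Itgb6 CT, the 2 subunits of αvβ6, was 24.36, 24.4 and 23.91 cycles in DS. Neither had a CT in control. A distance in CT between assays also holds the difference in their amplification efficiency, which was not measured, so it is no ratio of transcript levels. The change of Itgb6 minus Vtn was −38.0 cycles or lower, with both genes at bounds.

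**Figure D3:**
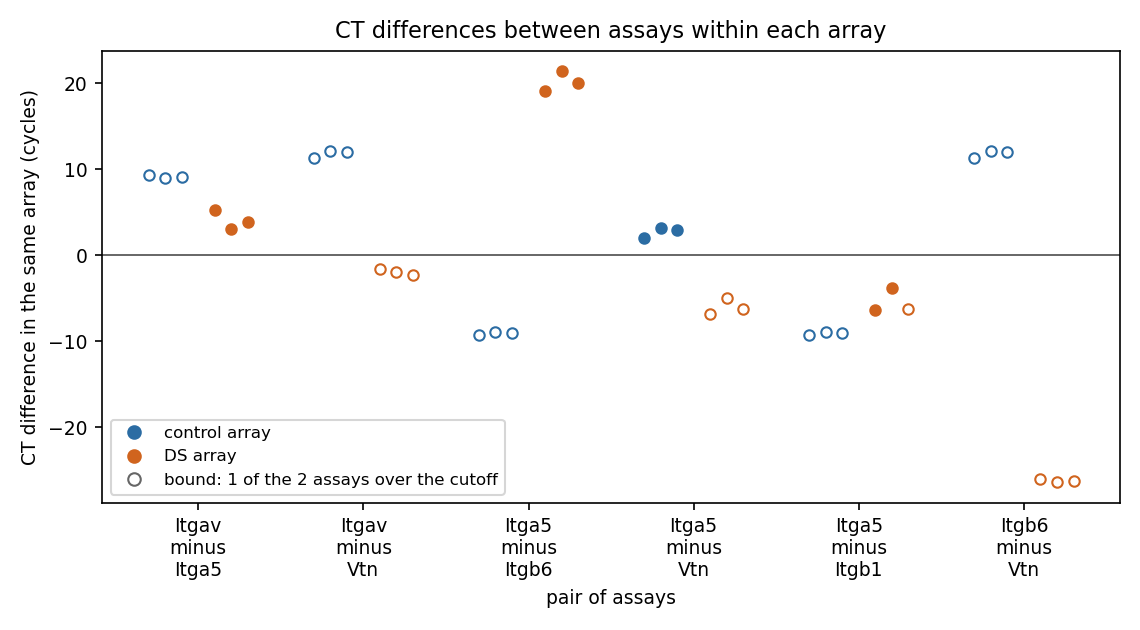
Differences in CT, in cycles, between the assays of each of 6 pairs within the same array, for 3 control and 3 DS arrays; open points are bounds because 1 of the 2 assays was over the cutoff there. The groups are apart in every pair. Itga5 minus Vtn crosses 0 between control and DS, as do Itgav minus Vtn, Itga5 minus Itgb6 and Itgb6 minus Vtn.

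The choice of reference mattered for the α subunits. The housekeeping genes Actb and B2m lacked a CT in control but gave 13.05, 11.55 and 12.01 (Actb) and 22.04, 21.91 and 19.89 (B2m) in DS, and Gapdh gave none in any array. With the 5 housekeeping genes as reference the median fold change of the 64 genes shifted by −7.62 on the log2 scale, and 30.4% of the calls were higher in DS in place of 78.0%. With Actb and Gapdh the shift was −11.89 and 16.1% of calls were higher. With the median of the 17 assays the shift was 2.95. Itgb6 was higher and Vtn lower in DS under each of the 7 references, with log2 fold changes of 14.3 to 29.1 for Itgb6 and −23.7 to −8.83 for Vtn. The Itgav sign turned under the 2 housekeeping references.

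**Figure D4:**
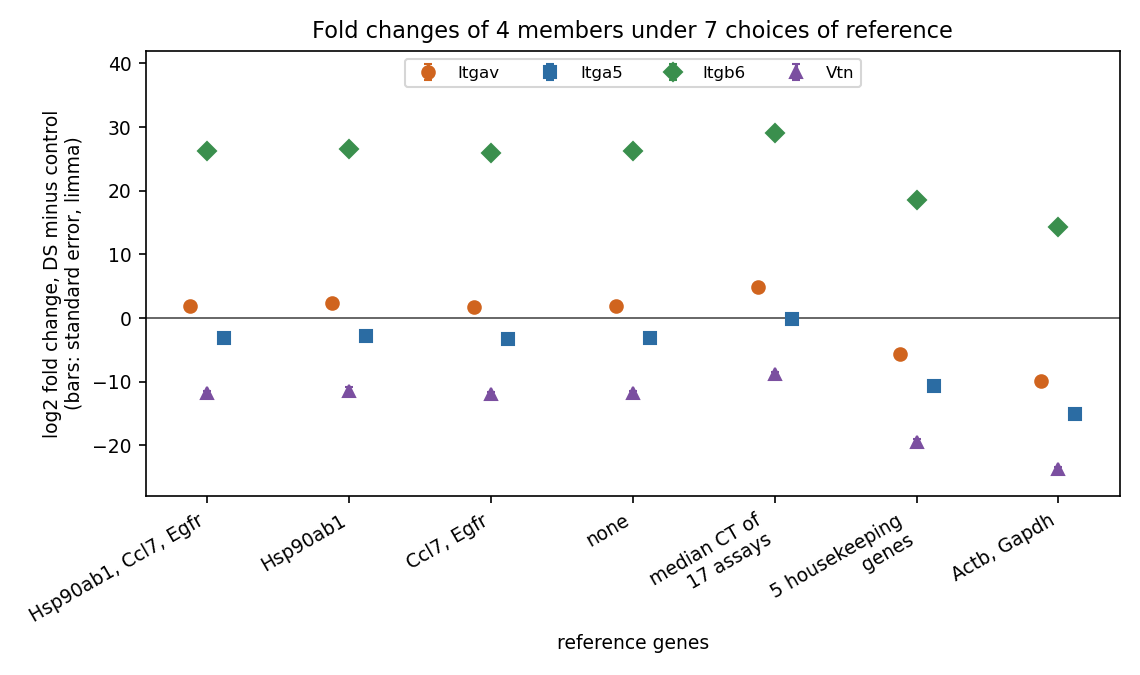
Log2 fold changes of Itgav, Itga5, Itgb6 and Vtn, DS minus control, under 7 choices of reference genes; bars are limma standard errors, mostly smaller than the symbols. Itgav turns from positive to negative with either housekeeping reference, and Itga5 is near 0 with the median reference.

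Itgb1 encodes β1, the only partner of α5. It had no CT in control and 35.5, 34.8 and 36.03 in DS, the last of these over the cutoff. Its fitted log2 fold change of 0.56, no bound since arrays of both groups were set to the cutoff (SE 0.37, adjusted p = 0.176, limma) was not called. It rested on single arrays, with 0.24 when DS array 2 was left out and 0.835 when DS array 3 was (limma adjusted p = 0.432 and 0.0464, in a range of 2.07e-08 to 0.836 over its alternatives). The Itgb1 CT came 1.82 ± 0.902 cycles (SD, n = 3) after the genomic DNA control, so both Itgb1 and Itgav were seen in DS only and at or later than that control, while Itga5 was earlier in all 3 DS arrays. The distance Itga5 minus Itgb1 was −9.3, −8.94 and −9.09 cycles or lower in control and −6.34, −3.8 and −6.2 in DS, the last also a bound because Itgb1 was over the cutoff in DS array 3.

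The array holds 6 integrin subunits besides the RGD-binding ones. Of these, 4 were tested, 2 rose, 1 fell and Itgb1 was not called, beside 71.9% higher and 20.3% lower among all tested genes. The median log2 fold change was 4.96 against 4.40 for all tested genes. Itga2, a collagen receptor subunit with β1, had a CT of 35.8, 36.01 (set to 36) and 34.28 in control and 19.68, 17.98 and 18.02 in DS. It rose by 16.79 on the log2 scale (SE 0.59, adjusted p = 1.27e-08, limma), but the methods' test of single genes did not call it after adjustment. Itga1, the other collagen receptor subunit, was detected in DS only and rose by at least 9.37 (SE 0.38, adjusted p = 2.78e-08, limma), although it was lower with Actb and Gapdh as reference. Itga4, which binds fibronectin and VCAM-1, had a CT of 24.03, 23.88 and 23.74 in control and 26.53, 25.04 and 26.33 in DS. It fell by 2.09 (SE 0.43, adjusted p = 0.00141, limma), but with the median reference its value was 0.86 and was not called. Itga3 and Itga6, subunits of laminin receptors, gave no CT.

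Genes tied to vitronectin or to RGD were counted as a list of 6. Of these, 4 were tested, 3 were called higher and none lower, where 71.9% and 20.3% of all tested genes were. Their median log2 fold change was 3.57, all as bounds, below the 4.40 of all tested genes. Plaur, the urokinase receptor, which also binds vitronectin, had a CT of 27.28, 25.98 and 28.02 in DS and none in control. It rose by at least 8.90 (SE 0.50, adjusted p = 2.46e-07, limma). Fga, the fibrinogen α chain with RGD sites of its own, and Plg, plasminogen, rose by at least 3.51 and 3.63 (limma adjusted p = 3.56e-05 and 1.44e-05). These 3 genes were lower in DS with Actb and Gapdh as reference, and Fga and Plg also with the 5 housekeeping genes, with which Plaur was not called. The methods' test of single genes did not call Plaur, adjusted or not, nor Fga after adjustment, and at a cutoff of 33 Fga and Plg were not called. The CT of Fga and Plg came 1.14 and 1.27 cycles before the genomic DNA control on average. Plau, urokinase, had a CT of 35.39, 35.7 and 36 in DS and was not called (0.29, SE 0.30, adjusted p = 0.358, limma). Both Plau and Itgb1 were called higher by limma at a cutoff of 40, without a cutoff and with the median reference, and lower with either housekeeping reference. Tgfb1, whose latent form αvβ6 activates, gave a single CT of 39.81, in DS array 1.

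Downstream signalling genes of integrins were counted as a list of 5, among them Mapk3, Rac1, Rhoa and Ctnnb1. All 5 were detected in DS only and were called higher, with a median of at least 10.37 on the log2 scale, against 71.9% higher among all tested genes. Mapk3, which encodes a kinase, had a CT of 20.88, 19.07 and 21.6 in DS and rose by at least 15.47 (SE 0.60, adjusted p = 2.06e-08, limma). The GTPase genes Rac1 and Rhoa rose by at least 6.00 and 10.37, and Ctnnb1, β-catenin, by at least 4.71. Rac1, Rhoa and Ctnnb1 were lower in DS with Actb and Gapdh as reference. With the 5 housekeeping genes Ctnnb1 was lower and Rac1 was not called. The methods' test of single genes did not call Mapk3 or Rac1, adjusted or not, nor Rhoa after adjustment.

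Leukocyte markers were found in both groups, with 2 of 6 detected in each control array and 3 of 6 in each DS array. Their summed relative level was 2.09, 1.26 and 2.40 in control and 151, 628 and 180 in DS. Ifng had the earliest CT among them and gave most of the sum in every array. Of the 4 tested, 3 were called higher and 1 lower by limma, beside 71.9% and 20.3% of all tested genes. Il4 was the gene called lower, with a CT of 33.76, 34.05 and 33.83 in control and none in DS. Il2 and Tnf were not detected in any array. The part of these markers in the integrin differences was not tested.

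The genes most like each tested member were those with the smallest root mean square difference of centred −ΔCT over the 6 arrays. Tagln (1.62), detected in DS only, was among the 2 genes most like Itgb6. Vtn was most like Cxcl3 (0.427), a chemokine gene that was also detected in control only, and then Col4a3 (0.757), a basement membrane collagen gene. Itgav was most like Col5a2 (0.251) and Ctsk (0.344), a collagen gene and a collagen-degrading protease gene. Both were measured in every array. Itga5 was most like Il4 (0.729), a cytokine gene detected in control only, and then Itga4 (1.13). Where a gene was over the cutoff in a group, its values there are the cutoff, as for Itgav, Itgb6 and Tagln in control and Vtn, Cxcl3 and Il4 in DS. These distances, other than that of Itga5 and Itga4, and the order of likeness therefore depend on the cutoff.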

How the data were processed

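RNA of 3 control and 3 DS cultures was run on 1 array each, of 96 wells, by SYBR Green real-time PCR. The authors deposited the CT of each well without normalization and a group average as a ratio to the reference genes. The deposited ratio has no spread and served as an alternative. For the fits, a CT over 36 or absent was set to 36, the reference CT (arithmetic mean over Hsp90ab1, Ccl7 and Egfr) was subtracted, and the sign was reversed. The 64 wound healing genes detected in at least 1 array were fitted with limma 3.58.1 in R 4.3.3, with Benjamini-Hochberg adjustment over all 64 and a threshold of 0.05. This moderated fit replaced the test of single genes in the methods. limma standard errors and p-values of bounds treat 36 as measured. Single values and pairs were compared by two-sided exact permutation tests in SciPy 1.17.1. The fit was tested on simulated data. The genes and lists were chosen with earlier results of these data known. Genes named are the 6 members, the other integrin subunits, vitronectin- or RGD-related genes, integrin signalling genes, reference and control assays, cell type markers, and the 2 genes most like each tested member. Results for some single genes of these lists are left out and remain in the counts. Promoter windows came from RefSeq, GRCm38.p6. A PCR array has no sequencing depth. Precision is limited by the number of arrays and the spread of CT, with a median SD over 17 assays of 0.405 cycles for control arrays and 0.607 for DS arrays. No CT was identical between arrays in any well. Alternatives were other references, CT cutoffs of 35, 40 or none, other filters and tests, a replicate block, each array left out in turn and, chosen after seeing the data, a cutoff of 33.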

Additional observations from a re-analysis of the deposited data

Results flagged for a closer look

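Control wells outside the gene comparison gave a signal in DS arrays above that in control arrays. The genomic DNA control had a mean CT of 33.6 in DS and no CT in control. The reverse transcription control is a single assay in 3 wells. Its first well had a mean CT of 29.6 in DS and none in control. Its last well had a mean CT of 32.1 in DS, against 1 control array with a CT, at 38.03. The middle well went the other way, with 22.74, 21.68 and 23.0 in control and 39.69, no CT and 41.0 in DS. Within 1 array, wells of this same assay differed by up to 15.3 cycles in control array 1 and by 10.1 and 12.1 in DS arrays 1 and 3. The part of these wells in the differences of Itgav, Itga5, Itgb6 and Vtn was not tested. Whether the wells hold the same assays in the same order on control and DS arrays was not tested either, and every CT difference printed here takes this order as deposited.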

How the results depend on the processing

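Itgb6 stayed higher and Vtn lower in DS, past the threshold, under every alternative with a test, and in the same direction in the deposited ratios, with log2 fold changes of 14.3 to 35.2 and −23.7 to −8.79. Both are fits against the cutoff that is set. Itga5 kept its call except with the median reference (−0.15), but its value was −10.73 under the 5 housekeeping genes and −15.0 under Actb and Gapdh. Itgav changed sign with 2 references, the 5 housekeeping genes (−5.66) or the pair Actb and Gapdh (−9.93). Actb was over the cutoff in control and Gapdh in every array, so these values rest on a CT of 36 for the reference and are no bounds. With the 5 housekeeping genes, the other values that turned were −7.07 for Itgb1, −4.12 for Fga, −7.33 for Plau, −3.99 for Plg, −1.62 for Rac1 and −2.92 for Ctnnb1. With Actb and Gapdh they were −2.52 for Itga1, −11.33 for Itgb1, −8.38 for Fga, −11.60 for Plau, −2.99 for Plaur, −8.26 for Plg, −5.89 for Rac1, −1.52 for Rhoa and −7.18 for Ctnnb1. With the median reference Itga4 was 0.86.

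The whole array had 46 genes called higher and 13 lower. The counts were 17 and 39 with the 5 housekeeping genes, and 10 and 52 with Actb and Gapdh. Restricting the test to the 16 genes detected in all 6 arrays left 8 and 6, of which Itga5 is the 1 RGD-binding gene. The methods' test with Benjamini-Hochberg adjustment called 27 higher and 9 lower (36 and 9 unadjusted, as in the methods), Itgav, Itga5, Itgb6 and Vtn among them. Itgav could not be tested at the cutoff of 33, chosen after seeing the data, because no array had an Itgav CT at or under it. Itgb3 had 0.61 at a cutoff of 40 and 2.27 without a cutoff (limma adjusted p = 0.305 and 0.274).

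With each array left out in turn, the log2 fold changes ranged from 1.78 to 2.15 for Itgav, −3.51 to −2.60 for Itga5, 26.08 to 26.31 for Itgb6 and −12.01 to −11.62 for Vtn. Calls numbered 44 to 46 higher and 13 lower. The 6 pairs kept their direction in these and under the cutoffs of 35, 40 and none. limma with the replicate block called 45 genes higher and 13 lower and kept all 4 calls. Replicate numbers were not taken as pairs. Deviations of equally numbered arrays correlated at 0.0832, 0.0506 and −0.199 across 17 gene assays, which are not independent, and no array correlated best with its own number.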

Other observations

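Besides Itgb6, the assays with a CT near 10 cycles in DS included Mif and Ptgs2. Mif and Ptgs2, a cytokine gene and the gene of cyclooxygenase 2, are named here after their values were seen. Mif had a CT of 25.7, 26.12 and 27.3 in control and 10.34, 8.13 and 10.91 in DS. Ptgs2 had 25.12, 23.71 and 24.0 in control and 10.39, 9.32 and 10.49 in DS. Both were detected in both groups, while Itgb6 had no CT in control.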
